A study of Mus musculus with 3 samples.

Results

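The NADPH oxidase of phagocytes is described here through 5 of its genes, Cybb, Cyba, Ncf1, Ncf4 and Rac2, which were taken by symbol from the 28692 genes of the series. Single-cell RNA was measured in 3 libraries, all of 1 group. 2208L tumour cells were injected into the mouse mammary gland and grew for 4 weeks to a diameter of 0.7 to 1 cm, and DAPI-negative CD45+ cells were sorted from the dissociated tumours. The labels give no strain, age or treatment, and name no untreated or tumour-free group. They do not say that the libraries are separate animals, so p-values measure only how differences between groups of barcodes vary over these 3 libraries. Each fit estimates that spread jointly over its groups. All comparisons are therefore between classes of barcodes within the same libraries.

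The oxidase moves electrons from NADPH across a membrane to oxygen and so makes superoxide. Its membrane part, flavocytochrome b, is a pair of the catalytic chain encoded by Cybb (also called NOX2) and the stabilising chain encoded by Cyba. In resting phagocytes the cytosolic subunits, among them the organiser encoded by Ncf1 and the phosphoinositide-binding subunit encoded by Ncf4, stay apart from the membrane, and they join it together with a Rac GTPase, Rac2 or Rac1, when the cell is stimulated. Neutrophils are known for the large oxidative burst this gives, and loss of any of several of these genes causes chronic granulomatous disease.

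The genes lie at separate loci on GRCm38 (GENCODE vM21, whole gene bodies). Cybb (ENSMUSG00000015340) is on the minus strand at chrX:9435252-9487771, Cyba (ENSMUSG00000006519) on the minus strand at chr8:122424776-122432930 and Ncf1 (ENSMUSG00000015950) on the minus strand at chr5:134220053-134229625. Ncf4 (ENSMUSG00000071715) is on the plus strand at chr15:78244801-78262580 and Rac2 (ENSMUSG00000033220) on the minus strand at chr15:78559167-78572783. Gm20388 overlaps Cyba and Gtf2ird2 overlaps Ncf1 on the other strand.

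RefSeq promoter sequences (GRCm38.p6) matched 3 of the 5 genes. The 250 bases before each RefSeq start are shown because Cybb was called higher in an interferon state of neutrophil-like barcodes, described further on. Capitals mark pairs of GAAA with 2 free bases between them, on either strand (read as TTTC on the other strand), a spelling of the core of interferon-response elements; it was chosen with that result known. All windows are on the minus strand and overlap no annotated exon. The Cybb window lies inside the GENCODE gene body given above, whose start is farther upstream than the RefSeq start. Those of Ncf1 and Cyba lie outside their gene bodies.
Cybb, chrX:9469325-9469574: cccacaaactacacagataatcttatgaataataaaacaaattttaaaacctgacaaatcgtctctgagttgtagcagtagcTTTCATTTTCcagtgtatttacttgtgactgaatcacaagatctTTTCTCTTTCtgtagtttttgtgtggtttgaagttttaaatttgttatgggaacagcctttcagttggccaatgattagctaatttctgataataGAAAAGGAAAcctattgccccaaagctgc
Ncf1, chr5:134229626-134229875: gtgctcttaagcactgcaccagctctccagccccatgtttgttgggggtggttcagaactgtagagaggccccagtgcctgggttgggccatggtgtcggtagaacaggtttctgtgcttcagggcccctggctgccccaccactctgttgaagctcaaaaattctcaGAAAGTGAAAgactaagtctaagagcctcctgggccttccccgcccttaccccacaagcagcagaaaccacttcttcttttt
Cyba, chr8:122432941-122433190: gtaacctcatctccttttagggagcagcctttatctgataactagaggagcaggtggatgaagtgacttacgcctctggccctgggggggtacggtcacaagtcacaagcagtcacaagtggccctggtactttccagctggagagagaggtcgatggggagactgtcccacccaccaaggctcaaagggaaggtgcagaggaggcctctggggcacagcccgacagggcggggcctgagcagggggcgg

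The Cybb window held 3 matches, 1 on the shown strand and 2 on the other, beginning 29, 168 and 124 bases before the RefSeq start. The Ncf1 window held 1 match and the Cyba window 0. Of 32851 RefSeq promoter windows of this length, 2.98% held at least 1 match and 0.0122% (4 windows) held at least 3. The windows differ in base composition, with 34.0% G and C for Cybb, 54.4% for Ncf1 and 60.0% for Cyba. GAGGAA, a purine-rich core bound by myeloid ETS factors, was searched in the same way and matched in none of the 3 windows, while 23.3% of all windows held it. A match describes letters and is not a measured site.

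The libraries held 9846404, 15259236 and 9445914 UMIs (unique molecular identifiers, each standing for 1 captured transcript), and 14225 of 14336 barcodes were kept. Barcodes were clustered without the oxidase and redox genes listed in the methods and were named from marker genes. This gave 6179 neutrophil-like, 3135 monocyte/macrophage-like, 3140 T-cell-like, 553 dendritic-cell-like, 450 NK-cell-like, 246 epithelial-like and 198 plasmacytoid-dendritic-like barcodes. The labels call the cell type tumor, while the sort was for leukocytes and the markers of all named classes but the epithelial-like one are those of leukocytes. The unnamed barcodes are described at the end. Neutrophil-like barcodes were the shallowest, with a median of 902 UMIs against 4299 in monocyte/macrophage-like and 1405 in T-cell-like barcodes. The 10 neutrophil markers summed to 63871 to 73549 CPM in neutrophil-like barcodes and to 363 to 395 CPM in T-cell-like ones, where CPM is the UMIs of a gene per 1000000 UMIs summed over a class in a library. The libraries shared 25 to 37 barcode sequences pairwise. Each level below is a mean ± SD over the 3 libraries (n = 3) in CPM, a share of a class's transcripts and not an amount per cell.

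The 5 genes differed in the class where each was highest. Cybb was highest in plasmacytoid-dendritic-like barcodes, at 703 ± 122 CPM, then in monocyte/macrophage-like barcodes, at 323 ± 62.8, and reached only 18.3 ± 7.97 in neutrophil-like barcodes. Ncf1 and Ncf4 were highest in neutrophil-like barcodes, at 263 ± 37.4 and 753 ± 62.3 CPM. Cyba was found in every class and was highest in monocyte/macrophage-like barcodes, and Rac2 was high in T-cell-like, neutrophil-like, plasmacytoid-dendritic-like and NK-cell-like barcodes alike.

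**Figure D1:**
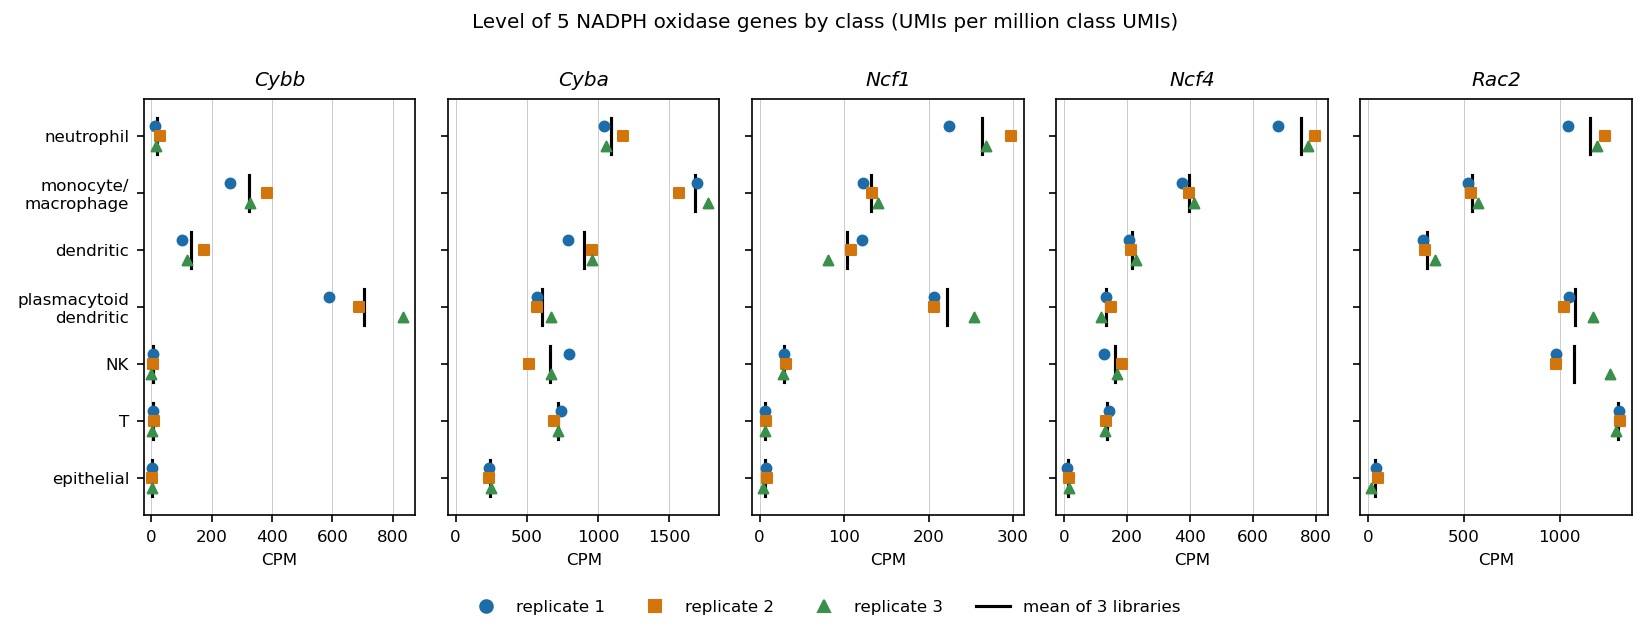
Level of each gene (CPM, linear axes that differ between panels) in 7 classes of barcodes; symbols are the 3 libraries and black lines their means. Neutrophil-like barcodes lie at 13.5 to 27.5 CPM for Cybb, below monocyte/macrophage-like barcodes at 259 to 385, while for Ncf1 and Ncf4 they lie above monocyte/macrophage-like barcodes in every library.

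For Cybb, the catalytic chain, the neutrophil-like level was 13.5, 27.5 and 14.0 CPM in replicates 1 to 3, from 21, 57 and 38 UMIs. In monocyte/macrophage-like barcodes it was 259, 385 and 325 CPM. The groups did not overlap in any library, and the neutrophil-like level was lower in 3 of 3. The log2 difference was -3.92 ± 0.17 (standard error), 15.1-fold lower, with an adjusted p of 4.36e-21 (edgeR, quasi-likelihood, 9235 genes tested). In that comparison 66.9% of all genes were called (31.5% higher and 35.5% lower in neutrophil-like barcodes), so a call alone says little and the size carries the result.

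The order of Cybb went from plasmacytoid-dendritic-like (590, 688 and 833 CPM) to monocyte/macrophage-like, dendritic-cell-like (102, 174 and 119 CPM), neutrophil-like, T-cell-like (5.71 ± 2.73), NK-cell-like (4.21 ± 3.68) and epithelial-like barcodes (2.74 ± 0.659). Each of the first 4 steps passed the test, with adjusted p of 8.98e-05, 1.49e-08, 5.12e-15 and 1.43e-06. T-cell-like and NK-cell-like barcodes did not differ beyond their spread (adjusted p = 0.795), nor did NK-cell-like and epithelial-like ones (adjusted p = 0.498). The lowest 3 classes rest on 33, 4 and 7 Cybb UMIs. Of all genes, 29.7% were called in the first of these steps, 30.4% in the next, 10.3% between T-cell-like and NK-cell-like and 42.4% between NK-cell-like and epithelial-like barcodes. Plasmacytoid-dendritic-like barcodes numbered only 28, 145 and 25 by library, and their monocyte/macrophage markers summed to 2515 to 4010 CPM.

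Neutrophil-like Cybb lay above the classes that should lack the gene but remained low. With every barcode thinned to 600 UMIs, 0.931% ± 0.367 of neutrophil-like barcodes held a Cybb UMI, against 0.394% ± 0.259 of T-cell-like barcodes and 17.7% ± 4.18 of monocyte/macrophage-like ones. Epithelial-like barcodes held none (0 of 239, which allows a share of up to 1.26%, for counting error only). Without thinning the shares were 1.64%, 0.948% and 70.6% at the median depths given above. The neutrophil-like CPM was higher than the T-cell-like one by 1.75 ± 0.28 (log2; adjusted p = 1.43e-06; 65.4% of genes called), higher than the epithelial-like one by 3.02 ± 0.42 (adjusted p = 6.4e-08; 71.4% called) and higher than the NK-cell-like one by 2.20 ± 0.57 (adjusted p = 0.00152; 47.1% called), in 3 of 3 libraries each. The NK-cell-like difference missed the threshold without replicate 2 (2.45, adjusted p = 0.0782), and its sign turned with classes set from marker UMIs (-0.72, adjusted p = 0.0954). With all barcodes thinned to 600 UMIs neither the NK-cell-like nor the epithelial-like difference was called (adjusted p = 0.231 and 0.0555).

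Values of macrophage transcripts in the same barcodes are given beside this. Cybb in neutrophil-like barcodes was 5.55% ± 1.46 of its monocyte/macrophage-like level. The same ratio was 1.41% ± 0.456 for C1qa, 1.48% ± 0.574 for C1qb, 1.40% ± 0.617 for C1qc and 2.49% ± 0.749 for Apoe, and it reached 13.6% ± 0.905 for Csf1r and 28.8% ± 6.83 for Ly6c2. All 12 monocyte/macrophage markers were detected in neutrophil-like barcodes and summed to 637 to 878 CPM, against 26509 to 33725 in monocyte/macrophage-like ones. Of the 104 neutrophil-like barcodes with a Cybb UMI, 15.4% held a C1qa, C1qb or C1qc UMI, against 13.1% of the 6075 without one. Median depths of the 2 groups were 1062.5 and 899 UMIs, and the shares differed by neutrophil state, as given further on. The part of macrophage transcripts in the low Cybb level was not tested.

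Cyba, the partner chain, did not follow Cybb. It was 1043, 1174 and 1058 CPM in neutrophil-like and 1696, 1569 and 1775 CPM in monocyte/macrophage-like barcodes, without overlap. The log2 difference was -0.37 ± 0.12 (adjusted p = 0.00791 in edgeR; lower in 3 of 3 libraries). The call was lost without replicate 1 (-0.31, adjusted p = 0.0594) and without replicate 3 (-0.24, adjusted p = 0.216). Below these came dendritic-cell-like (902 ± 99.8), T-cell-like (718 ± 25.8), NK-cell-like (661 ± 140), plasmacytoid-dendritic-like (605 ± 56.5) and epithelial-like barcodes (239 ± 6.66). Neutrophil-like to dendritic-cell-like (adjusted p = 0.00322), dendritic-cell-like to T-cell-like (adjusted p = 0.0303) and plasmacytoid-dendritic-like to epithelial-like (adjusted p = 1.57e-07) passed. The steps from T-cell-like to NK-cell-like and on to plasmacytoid-dendritic-like barcodes did not (adjusted p = 0.134 and 0.202). The share of all genes called was 44.0% for dendritic-cell-like against T-cell-like, 21.6% for NK-cell-like against plasmacytoid-dendritic-like and 44.6% for plasmacytoid-dendritic-like against epithelial-like barcodes. Plasmacytoid-dendritic-like barcodes thus had the highest mean of Cybb and the lowest mean of Cyba among the leukocyte classes. Their Cyba level was not called different from the NK-cell-like one.

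Ncf1, the organiser, was 224, 298 and 268 CPM in neutrophil-like barcodes and 122, 133 and 140.2 CPM in monocyte/macrophage-like ones. The lowest neutrophil-like library lay above the highest monocyte/macrophage-like one. The log2 difference was 1.25 ± 0.13, 2.37-fold higher (adjusted p = 1.08e-10 in edgeR; higher in 3 of 3 libraries). Next to neutrophil-like barcodes stood the plasmacytoid-dendritic-like class, at 222 ± 27.2 CPM, lower by 0.82 ± 0.18 (log2, adjusted p = 0.000223; 45.0% of genes called); with scaling by library totals alone this difference was 0.32 (adjusted p = 0.101). Plasmacytoid-dendritic-like, monocyte/macrophage-like (132 ± 9.12) and dendritic-cell-like barcodes (103 ± 20.4) were not called between neighbours (adjusted p = 0.0728 and 0.266), but both steps were with library totals, at log2 differences of -0.68 for monocyte/macrophage-like minus plasmacytoid-dendritic-like and -0.32 for dendritic-cell-like minus monocyte/macrophage-like barcodes (adjusted p = 0.00171 and 0.0474). Ncf1 dropped to 29.4 ± 2.24 CPM in NK-cell-like barcodes, and T-cell-like (6.33 ± 0.708) and epithelial-like barcodes (6.28 ± 2.45) did not differ beyond their spread (adjusted p = 0.708). Of all genes 28.3% were called between dendritic-cell-like and NK-cell-like barcodes and 59.6% between T-cell-like and epithelial-like ones. The neutrophil-like level was above the T-cell-like one by 5.51 ± 0.20 (log2; adjusted p = 2.91e-23).

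Ncf4, the phosphoinositide-binding subunit, was 682, 799.6 and 777 CPM in neutrophil-like and 377, 398 and 415 CPM in monocyte/macrophage-like barcodes. The groups did not overlap, and the log2 difference was 1.17 ± 0.12, 2.25-fold higher (adjusted p = 1.22e-10 in edgeR; higher in 3 of 3 libraries). Dendritic-cell-like barcodes had 216 ± 10.8 CPM, NK-cell-like 161 ± 29.3, T-cell-like 136 ± 6.19, plasmacytoid-dendritic-like 133 ± 16.3 and epithelial-like 14.5 ± 4.21. NK-cell-like, T-cell-like and plasmacytoid-dendritic-like barcodes did not differ between neighbours (adjusted p = 0.805 and 0.232; 31.4% of genes called in the second), and the other 4 steps of the order passed. The step from dendritic-cell-like to NK-cell-like barcodes (0.56, adjusted p = 0.0132) was lost with library totals (0.39, adjusted p = 0.0708). The T-cell-like level was 18.2% ± 2.39 of the neutrophil-like one for Ncf4 but 2.41% ± 0.197 for Ncf1, beside 0.50% ± 0.0187 for S100a8 and 0.542% ± 0.0862 for S100a9, abundant neutrophil transcripts.

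Rac2, the GTPase restricted to blood cells, was 1047, 1236 and 1193 CPM in neutrophil-like and 524, 539 and 572 CPM in monocyte/macrophage-like barcodes. The groups did not overlap, and the difference was 1.33 ± 0.14 (log2), 2.52-fold higher (adjusted p = 2.13e-10 in edgeR; higher in 3 of 3 libraries). T-cell-like barcodes stood highest, at 1308, 1313 and 1294 CPM. Their log2 difference from neutrophil-like barcodes was -0.01 ± 0.14 (adjusted p = 0.949, interval -0.30 to 0.27), although the CPM was lower among neutrophils in 3 of 3 libraries. Plasmacytoid-dendritic-like (1082 ± 83.1) and NK-cell-like barcodes (1075 ± 163) did not differ from each other (adjusted p = 0.466). Neutrophil-like barcodes were called above them by 0.67 and 0.47 (adjusted p = 0.000497 and 0.00932), but with library totals the differences were 0.11 and 0.12 and neither was called (adjusted p = 0.597 and 0.522). Dendritic-cell-like (309 ± 33.1) and epithelial-like barcodes (36.1 ± 18.2) were lowest; 35.6% of genes were called between NK-cell-like and monocyte/macrophage-like and 54.7% between dendritic-cell-like and epithelial-like barcodes. Among T-cell-like clusters Rac2 ran from 929.5 ± 40.5 CPM in the cluster led by Il17a and Trdc to 1638 ± 94.7 in that led by Ccl5 and Gzmk.

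**Figure D2:**
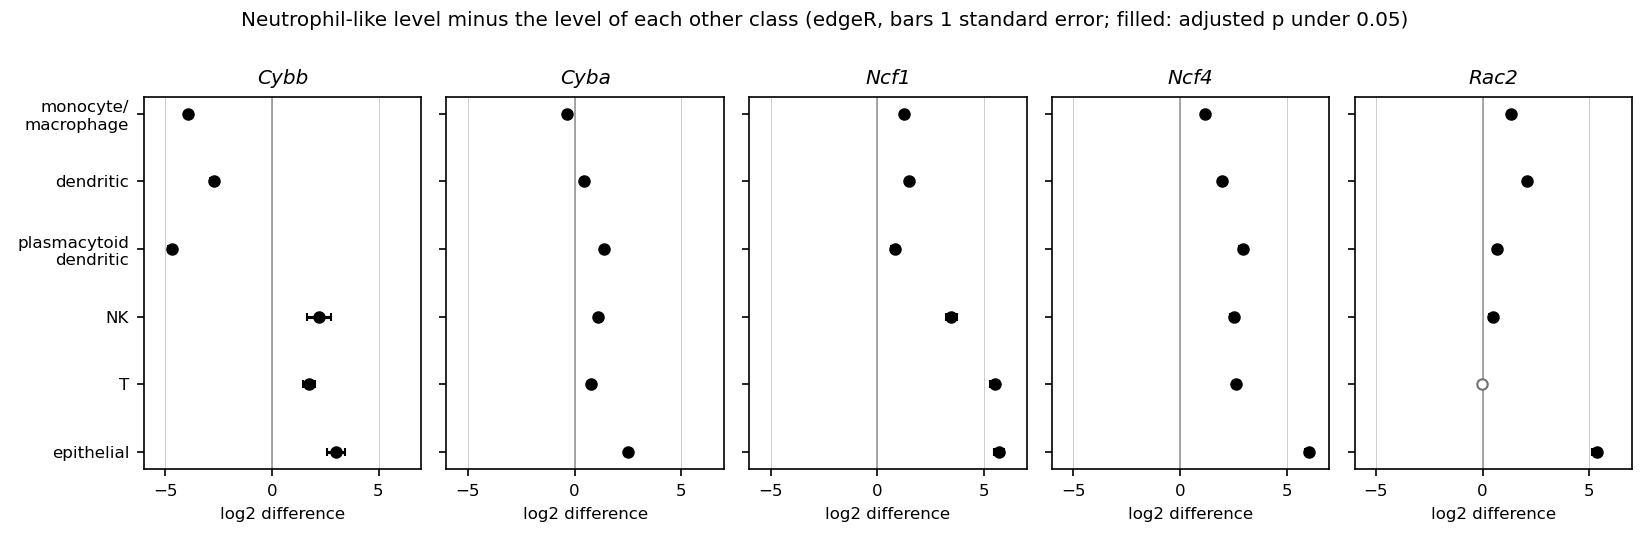
Log2 difference of the neutrophil-like level from each other class for the 5 genes. Bars are 1 standard error from the joint edgeR fit to all classes in the 3 libraries, and filled points have an adjusted p under 0.05. Cybb lies left of 0 against the 3 other myeloid classes (-3.92, -2.71 and -4.69) while Ncf1, Ncf4 and Rac2 lie right of 0 there.

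Counted over the classes other than monocyte/macrophage-like, 22 of 25 gene-by-class differences were called higher in neutrophil-like barcodes, 2 lower and 1 not. The lower ones were Cybb against dendritic-cell-like (-2.71 ± 0.19; 58.1% of genes called) and plasmacytoid-dendritic-like barcodes (-4.69 ± 0.19), and the difference not called was Rac2 against T-cell-like barcodes. Over all genes 26.5% were higher in neutrophil-like barcodes against NK-cell-like, 31.6% against T-cell-like, 28.9% against dendritic-cell-like, 35.5% against epithelial-like and 26.0% against plasmacytoid-dendritic-like ones, and 29.2% and 18.9% were lower against the dendritic and plasmacytoid classes. With library totals 21 of these calls stood in the same direction. That scaling moved the median of all genes from -0.09 to -0.34 in the monocyte/macrophage comparison, where the 5 members stayed called, at -4.16 for Cybb, -0.62 for Cyba, 1.00 for Ncf1, 0.92 for Ncf4 and 1.08 for Rac2. The 5 members thus kept their direction there, and the Rac2 difference from T-cell-like barcodes, which was not called, changed sign under 7 of the alternatives.

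The proportion of the GTPase transcripts also differed by class. Of the UMIs of Rac1 and Rac2 together, Rac2 made up 60.6% to 62.4% by library in neutrophil-like, 50.7% to 53.5% in monocyte/macrophage-like and 38.8% to 45.2% in dendritic-cell-like barcodes. It reached 79.5% to 80.9% in T-cell-like and 83.7% to 88.8% in plasmacytoid-dendritic-like barcodes, and 6.28% to 16.2% in epithelial-like ones. The shares are of UMIs and are not corrected for transcript length; the ranges of the 3 myeloid classes named first did not overlap.

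Among barcodes thinned to 600 UMIs, 14.9% ± 1.72 of neutrophil-like, 13.4% ± 6.26 of plasmacytoid-dendritic-like and 9.76% ± 2.04 of monocyte/macrophage-like barcodes held UMIs of at least 3 of the 5 genes, against 2.15% ± 2.41 of NK-cell-like, 1.63% ± 0.578 of dendritic-cell-like, 1.59% ± 0.190 of T-cell-like and 0.407% ± 0.704 of epithelial-like ones. Without thinning all 5 genes were seen together in 24.7% ± 8.68 of monocyte/macrophage-like and 0.215% ± 0.121 of neutrophil-like barcodes, which differ in depth. In thinned neutrophil-like barcodes 45.9% ± 3.14 held Cyba, 14.0% ± 1.86 Ncf1, 34.8% ± 3.43 Ncf4 and 46.4% ± 3.12 Rac2, and in monocyte/macrophage-like ones 60.5% ± 1.20, 6.94% ± 0.520, 21.8% ± 1.69 and 26.3% ± 0.460.

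Within the monocyte/macrophage and dendritic classes, levels are given as a description without a test. Cybb was 412 ± 73.1 CPM in barcodes named monocyte, 329 ± 63.4 in macrophages marked by Cx3cr1 and Tmem119 and 227 ± 34.0 in macrophages marked by Folr2 and Mrc1, in this order in every library. Ncf1 was highest in the Folr2-Mrc1 group, at 168 ± 8.53 CPM (159 to 176 by library). It was 117 ± 16.6 in barcodes named monocyte (98.1 to 127) and 123 ± 9.18 in the Cx3cr1-Tmem119 group (114 to 132), and these ranges overlapped. Dendritic subclusters of 156, 28 and 13 barcodes had no name and are left out. The 3 named dendritic groups differed in Cybb. Those marked by Cd209a and Mgl2 had 158, 305 and 228 CPM, those marked by Xcr1 and Clec9a (cross-presenting dendritic cells) 14.3, 16.2 and 0 CPM from 8 UMIs, and those marked by Ccr7 and Fscn1 (migratory dendritic cells) 0, 76.8 and 20.5 CPM from 13 UMIs. The Ccr7-Fscn1 group also had the lowest Rac2 of these groups, 83.6 ± 20.6 CPM, while its Cyba (1279 ± 154) and Ncf1 (191 ± 64.4) had the highest means of the 3 dendritic groups. It held only 32, 43 and 11 barcodes by library.

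**Figure D3:**
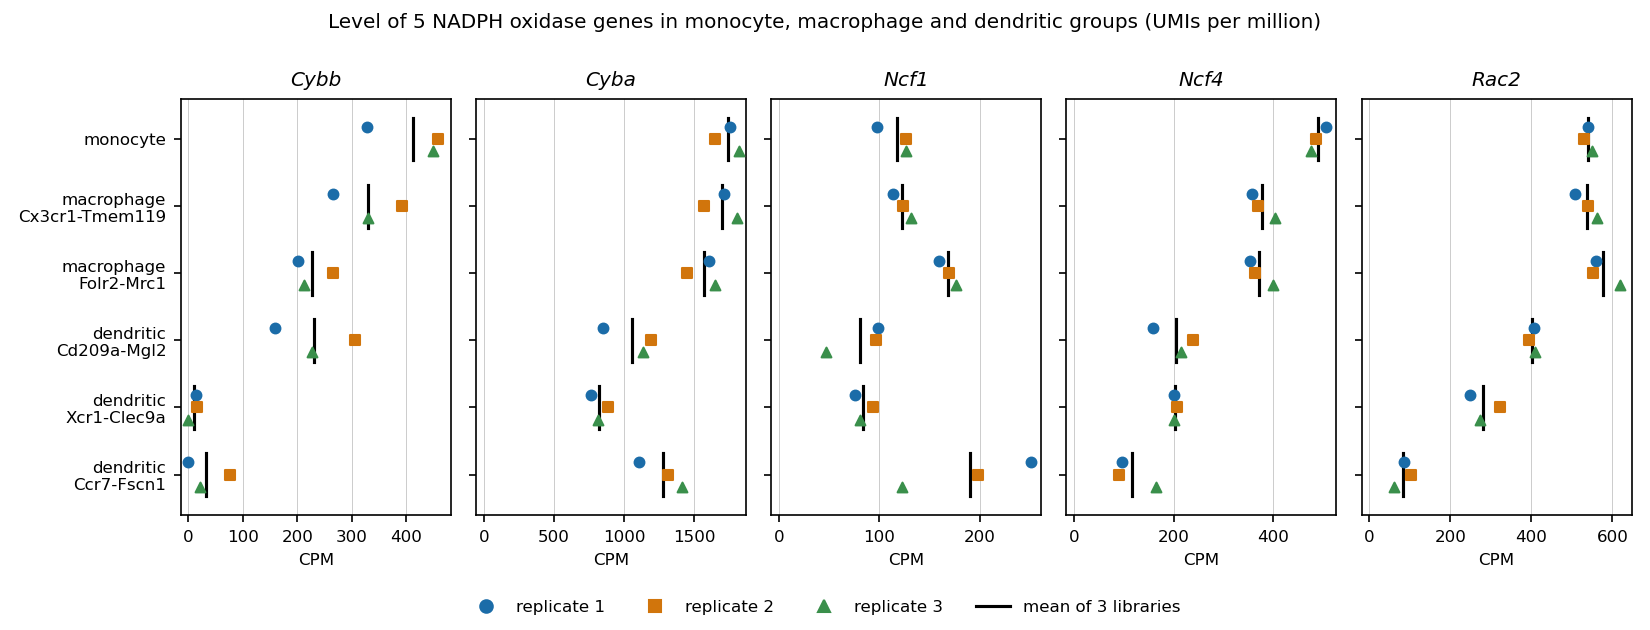
Level of each gene (CPM, linear axes that differ between panels) in 6 groups of monocyte-, macrophage- and dendritic-like barcodes; symbols are the 3 libraries and black lines their means. Cybb lies at 158 CPM or above in every library of the monocyte, macrophage and Cd209a-Mgl2 groups and at 76.8 CPM or below in the Xcr1-Clec9a and Ccr7-Fscn1 groups.

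The genes most like each member over the 21 class-by-library sums are named as a description; the points share libraries and depth, and the genes compared numbered 2787. For Cybb they were Pitpna (Pearson r = 0.96), Psap (0.93) and Unc93b1 (0.93), for Cyba Arrb2 (0.93), Rap1b (0.93) and Fam105a (0.93), and for Ncf1 the adaptor gene Scimp (0.98) with the Src-family kinase genes Fgr (0.96) and Lyn (0.96). Ncf4 was most like Arrb2 (0.96), Srgn (0.95) and Lcp1 (0.95), and Rac2 most like Fli1 (0.97), Cd37 (0.97) and Rhoh (0.96). Among the members r was highest between Cyba and Ncf4 (0.91) and lowest between Cybb and Rac2 (0.26).

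The rest of the pathway was read from 7 lists of 66 genes, of which 55 were tested between neutrophils and the monocyte/macrophage class. Of these, 22 were higher in neutrophil-like barcodes, 20 lower and 13 not called, beside 31.5% higher and 35.5% lower among all genes in this comparison, with a median log2 difference of -0.21 beside -0.09 over all genes (-0.13 with genes at 0 UMIs set to the floor of 3 counts over the group). Rac1, the more widely expressed GTPase, was higher by 0.81 ± 0.14 (adjusted p = 3.15e-06). Of 6 chaperone and control genes, BC017643 (Cybc1, the chaperone needed for flavocytochrome b) was higher by 0.57 ± 0.14, and the proton channel gene Hvcn1 and the GDP-dissociation inhibitor gene Arhgdia were lower by log2 differences of -0.56 ± 0.22 and -0.30 ± 0.12. Of 12 kinases and exchange factors 2 were higher and 5 lower; Vav1, an exchange factor for Rac, had 1.15 ± 0.15, and Pak1, Prkca and Pla2g4a had -1.29 ± 0.22, -1.26 ± 0.33 and -1.12 ± 0.21.

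The counts that follow stand beside the same 31.5% of all genes higher and 35.5% lower. Of 7 tested genes of NADPH supply 5 were lower and 1 higher (median -1.28, or -0.92 with Me1 at the floor). Idh1 (-2.27 ± 0.23) and Idh2 (-1.71 ± 0.18), isocitrate dehydrogenases that reduce NADP, were lower in 3 of 3 libraries. Malic enzyme gene Me1 had 0 UMIs among neutrophils and 10 in the monocyte/macrophage class. Genes that remove superoxide and peroxide split, with 9 of 15 higher and 5 lower (median 0.91). Prdx6 (1.75 ± 0.13), thioredoxin gene Txn1 (1.74 ± 0.11) and glutathione reductase gene Gsr (1.47 ± 0.13) were higher, and catalase gene Cat (-2.86 ± 0.31), Prdx2 (-2.59 ± 0.16) and Prdx1 (-1.33 ± 0.13) lower. The last list holds NRF2 targets, the NRF2 gene Nfe2l2, the NRF2 inhibitor gene Keap1 and the peroxidase gene Mpo. Of its 6 tested genes 4 were higher, led by the cystine transporter gene Slc7a11 (3.22 ± 0.15), Gclm (1.46 ± 0.16) and Hmox1 (1.07 ± 0.13). Keap1 was lower (-1.09 ± 0.21). The largest adjusted p among the genes named here as higher or lower was 0.0281 (Hvcn1).

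The other NADPH oxidases were close to undetected. Nox1 had 4 UMIs in all kept barcodes and Nox3 0. Of 29 Nox4 UMIs 23, of 30 Duox1 UMIs 28 and of 233 Duoxa1 UMIs 217 lay in epithelial-like barcodes. In neutrophil-like barcodes Nox1 had 1 UMI and Noxo1 9, and Nox3, Nox4, Duox1 and Duox2 had 0 of 6179 barcodes, which allows a share of up to 0.0486% of barcodes with a UMI for each, for counting error only and at a median depth of 902 UMIs, and sets no limit on cells that express the gene. Of this list 2 of 9 genes were tested against the monocyte/macrophage class and neither was called; Duoxa1, with 0 and 4 UMIs, had the lower p (adjusted p = 0.227).

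Neutrophil-like barcodes were divided into 6 states. A further subcluster of 29 barcodes, led by T-cell genes such as Trbc2 and Cd3e, was given no state but stayed in the neutrophil-like class. The Retnlg state (1621 barcodes) carries genes of circulating neutrophils, the Cxcl3-Hilpda-Hcar2 state (1582) chemokine and hypoxia genes, the interferon state (269) interferon-stimulated genes and the Hspa1a-Mgarp state (145) stress genes. The Ltc4s-Siglecf (2063) and Plau-Pla1a states (470) did not reach the marker minimum and are called by leading genes. The members were not among the genes used to set the states. Each state was tested against the mean of the other 5 over 3642 genes, and 10 of 30 gene-by-state differences were called higher and 8 lower. The share of all genes called was 33.9% for Retnlg (23.1% higher and 10.8% lower), 53.9% for Cxcl3-Hilpda-Hcar2 (28.1% and 25.8%), 61.0% for Ltc4s-Siglecf (32.9% and 28.0%), 26.0% for interferon (19.0% and 7.0%), 29.7% for Plau-Pla1a (17.0% and 12.7%) and 29.7% for Hspa1a-Mgarp (13.2% and 16.5%). Scaling moved these values: with library totals in place of TMM (trimmed mean of M-values) factors, the median of all genes went from 0.06 to 0.51 for Ltc4s-Siglecf, from -0.08 to -0.48 for Cxcl3-Hilpda-Hcar2, from 0.02 to -0.37 for interferon, from 0.10 to 0.35 for Plau-Pla1a, from -0.10 to 0.16 for Hspa1a-Mgarp and from 0.09 to -0.09 for Retnlg. In all, 11 of the 18 calls stood in the same direction with either scaling. Those of them that are named are described first, and not all of the 18 calls are named.

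In the Retnlg state Ncf4, Rac2 and Ncf1 were called higher with either scaling, and Cyba (0.35, adjusted p = 0.00102) was not called with library totals (0.17, adjusted p = 0.101). Ncf4 was 948, 1051 and 1066 CPM there, above the range of every other state (400.4 to 936), and higher by 0.83 ± 0.09 (log2; adjusted p = 3.58e-12; 0.64 with library totals). Rac2 was higher by 0.77 ± 0.09 (adjusted p = 3.26e-11; 0.59 with library totals) and Ncf1 by 0.48 ± 0.12 (adjusted p = 0.000586), each in 3 of 3 libraries. The Ncf1 call was lost without replicate 2 (0.31, adjusted p = 0.124). Of 34 pathway genes tested 19 were higher and 2 lower, beside 23.1% and 10.8% of all genes. Taldo1 (1.30 ± 0.11) and Pgd (0.72 ± 0.16), enzymes of the pentose phosphate pathway, were among the higher ones.

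Rac2 was called higher in a large state and lower in another. It was 1689, 1553 and 1706 CPM in the Ltc4s-Siglecf state and 566, 646 and 614 CPM in the Cxcl3-Hilpda-Hcar2 state, without overlap. Against the mean of the other states it was higher by 0.43 ± 0.09 in the former (adjusted p = 3.09e-05; 0.89 with library totals) and lower by a log2 difference of -0.51 ± 0.10 in the latter (adjusted p = 1.36e-05; -0.91 with library totals). The Cxcl3-Hilpda-Hcar2 call was lost without replicate 1 (-0.21, adjusted p = 0.13). The share of Rac2 among Rac1 and Rac2 UMIs was 65.6% to 69.4% in the Ltc4s-Siglecf state, 63.6% to 65.0% in the Retnlg state, 45.7% to 50.3% in the Plau-Pla1a state and 48.7% to 49.5% in the Cxcl3-Hilpda-Hcar2 state. Rac1 itself was 578 to 681 CPM in the Cxcl3-Hilpda-Hcar2 and 751 to 814 in the Ltc4s-Siglecf state. Arhgdib, a GDP-dissociation inhibitor gene of blood cells, had the same signs as Rac2 in these states but not in the Plau-Pla1a state (0.36), at 0.56 in the Ltc4s-Siglecf state (adjusted p = 1.12e-06) and -0.70 in the Cxcl3-Hilpda-Hcar2 state (adjusted p = 5.28e-07).

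In the Plau-Pla1a state Ncf1 and Rac2 were lower by log2 differences of -0.93 ± 0.19 (adjusted p = 8.73e-05) and -0.56 ± 0.12 (adjusted p = 0.0002). Cybb had 0 UMIs in its 470 barcodes, which allows a level of up to 7.74 CPM and a share of up to 0.638%; its fitted change is no bound and is not given here. In the Hspa1a-Mgarp state Ncf4 and Cyba were lower, at -0.98 ± 0.19 (adjusted p = 2.13e-05) and -0.66 ± 0.15 (adjusted p = 0.000421). Its Ncf4 values, 400.4, 729.8 and 412 CPM, overlapped those of the Cxcl3-Hilpda-Hcar2 state (514 to 611), and the state held 63, 23 and 59 barcodes by library.

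**Figure D4:**
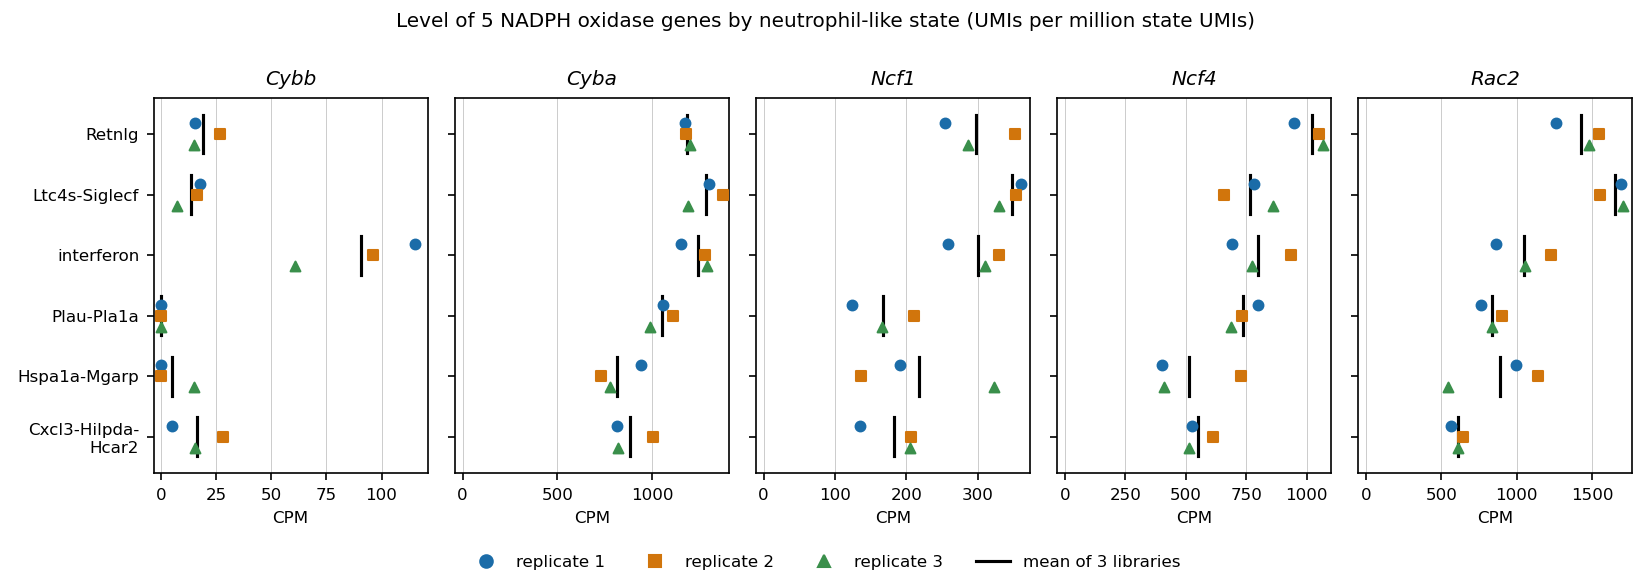
Level of each gene (CPM, linear axes that differ between panels) in 6 states of neutrophil-like barcodes; symbols are the 3 libraries and black lines their means. Cybb lies at 60.7 to 115 CPM in the interferon state and at 28.1 CPM or below in every library of the other states, and Rac2 is lowest in the Cxcl3-Hilpda-Hcar2 state apart from replicate 3 of the Hspa1a-Mgarp state.

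Cybb was called higher in the interferon state with either scaling. It was 115, 96.4 and 60.7 CPM there, from 4, 14 and 8 UMIs in 22 barcodes, and at most 28.1 CPM in any library of another state. The log2 difference was 3.89 ± 0.56 (adjusted p = 1.13e-08 in edgeR; higher in 3 of 3 libraries; 19.0% of all genes called higher), and it was 3.54 with library totals (adjusted p = 3.61e-07) and 3.52 with DESeq2. The other states include 1 at 0 UMIs and 1 with 1 UMI, so the fitted value depends on the prior count. The mean of 90.7 ± 27.7 CPM stands beside 19.0 ± 6.71 in the Retnlg state and 16.2 ± 11.6 in the Cxcl3-Hilpda-Hcar2 state, and beside 323 ± 62.8 in monocyte/macrophage-like barcodes. At sub-clustering resolution 0.3, where interferon and Retnlg barcodes formed 1 cluster, the difference was 1.16 (adjusted p = 0.00182). With a stricter barcode filter (500 genes, 5% mitochondrial UMIs) the interferon state did not keep 20 barcodes in every library and was not tested. Cybb had no value in the states that were tested there.

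Markers of monocytes and macrophages summed to 903 to 1296 CPM in the interferon state, against 549 to 752 in the Cxcl3-Hilpda-Hcar2, 618 to 892 in the Ltc4s-Siglecf, 671 to 897 in the Retnlg, 544 to 831 in the Plau-Pla1a and 824 to 1375 in the Hspa1a-Mgarp state. In the interferon state 11 of the 12 markers were detected and Mrc1 was at 0. Of its 22 barcodes with a Cybb UMI, 4.55% (1 barcode) held a C1q UMI, against 18.6% of the 247 without one, and their median depths were 975.5 and 975 UMIs. In the Cxcl3-Hilpda-Hcar2 state the shares went the other way, at 32.1% (9 of 28 barcodes) and 15.4%. Median depths there were 1584.5 and 1114 UMIs. In the Ltc4s-Siglecf state the shares were 9.09% and 10.9%, and in the Retnlg state 10% and 13.6%. Markers of plasmacytoid dendritic cells summed to 970.4 to 1296 CPM in the interferon state and to 133 to 385 in the other states; 318 of 322 UMIs were of Bst2, which is also an interferon-stimulated gene, 1 was of Siglech and 3 of Tcf4, and Ccr9, Cox6a2, Klk1 and Spib were at 0. With all barcodes that held a C1q UMI left out, the Hspa1a-Mgarp state became too small to enter the fit. Against the other states that remained, the Cybb difference was 4.17 ± 0.57 (adjusted p = 1.53e-11 in edgeR). The set of states compared thus differs from that of the main value.

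Cyba, Ncf1, Ncf4 and Rac2 were also called higher in the interferon state, by 0.62, 0.69, 0.62 and 0.46, but with library totals they were at 0.25, 0.30, 0.25 and 0.09 and none was called. Ncf4 in the Ltc4s-Siglecf state was called lower with TMM factors (-0.26 ± 0.10, adjusted p = 0.0166) and higher with library totals (0.20, adjusted p = 0.0453), so it has no direction here. Other genes of the pathway with a call in the interferon state under either scaling were Taldo1 (1.27), Glrx (2.01), Prdx5 (1.45) and Sod2, the mitochondrial superoxide dismutase gene (1.44). Hmox1 was higher by 2.57 in the Cxcl3-Hilpda-Hcar2 state (adjusted p = 1.05e-40) and lower by a log2 difference of -2.66 in the Ltc4s-Siglecf state (adjusted p = 1.44e-27), with Slc7a11 and Nfe2l2 in the same directions.

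The series title names ICAM1-high neutrophils, so the members were also compared between neutrophil-like barcodes with and without an Icam1 UMI after thinning to 600 UMIs, 394 and 5014 barcodes. A further 771 shallower ones were left out. An Icam1 UMI shows that the RNA was detected, not that its level or the protein was high. Barcodes without an Icam1 UMI may still express the gene, so this is not a comparison of ICAM1-high with other neutrophils. None of the 5 members was called, while 24 of 4035 genes (0.595%, with 0.372% higher and 0.223% lower) were and 328 had an unadjusted p under 0.05. Icam1 itself was left among the genes tested, and its difference is set by the split. DESeq2 called none of the 4 members it gave an adjusted p for. Cybb was 66.0, 62.7 and 41.7 CPM in detected and 3.91, 15.9 and 17.8 CPM in undetected barcodes, higher in 3 of 3 libraries without overlap, but from 13 and 41 UMIs. Its log2 difference was 1.96 ± 0.56 (interval 0.81 to 3.11, unadjusted p = 0.00159, adjusted p = 0.165 in edgeR). The interferon state made up 7.08% ± 2.93 of detected and 4.10% ± 1.91 of undetected barcodes, and its part in the Cybb values was not tested, since without that state Cybb fell below the filter on low counts.

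Ncf1 was 380, 414 and 365 CPM in detected and 213, 294 and 273 in undetected barcodes, a log2 difference of 0.51 ± 0.18 (adjusted p = 0.374). Ncf4 differed by 0.32 ± 0.12 (adjusted p = 0.432) and Cyba by 0.16 ± 0.11 (adjusted p = 0.761), each higher in 3 of 3 libraries. Rac2 was higher in 2 of 3 libraries (0.13 ± 0.12, adjusted p = 0.861, interval -0.12 to 0.37). Of 38 pathway genes tested 1 was called, Sod2, higher by 0.73 ± 0.17 (adjusted p = 0.043), and that call was lost with DESeq2, without the library block and with any 1 library left out. The median of the 38 was 0.05 beside -0.01 over all genes.

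**Figure D5:**
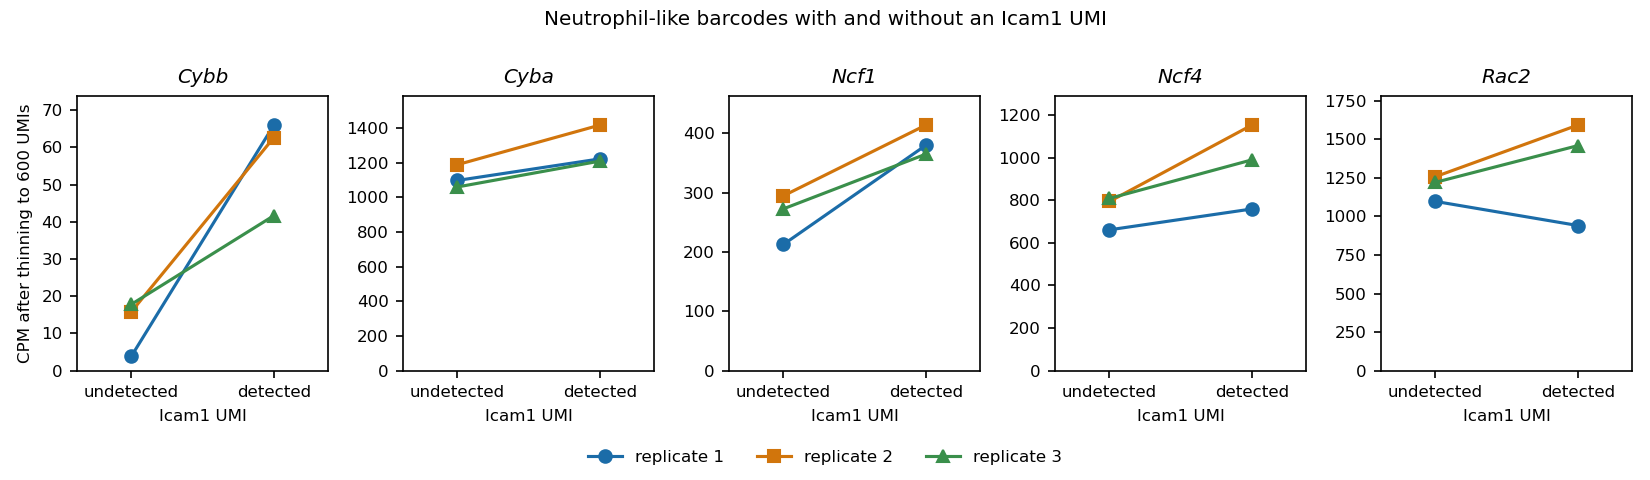
Level of each gene (CPM after thinning each barcode to 600 UMIs) in neutrophil-like barcodes without and with an Icam1 UMI; each line joins the values of 1 library. Cybb, Cyba, Ncf1 and Ncf4 lie higher in detected barcodes in 3 of 3 libraries and Rac2 in 2 of 3, and none of the 5 differences passed the test.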

How the data were processed

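The authors deposited UMI counts, whole numbers for each gene and barcode without normalisation, per the file headers (software version 3.0.0) and values. Cell Ranger, Seurat and mm10 are named in the processing notes the submitters gave, without versions. Whether the chemistry read 5′ or 3′ ends is not settled, since the labels name both.

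Barcodes needed 200 genes and a mitochondrial share up to 10% (22 and 107 failed). Scrublet called 1 barcode and so has not worked; an alternative leaves out the 560 highest scores. Counts were scaled to 10000, log-transformed and clustered (2000 variable genes without the 66 pathway genes or Icam1, 30 components, 15 neighbours, Leiden resolution 1; scanpy 1.11.5, igraph 0.11.9); neutrophil-like barcodes were sub-clustered at 0.5. A class name needs at least 3 fixed markers in 10% of barcodes and 2-fold above the others with 10 CPM added. Clusters of 241 and 83 barcodes stayed unnamed. Counts were summed per library and class, state or Icam1 status and tested with edgeR 4.0.16 (quasi-likelihood, TMM, filterByExpr, library as a block, Benjamini-Hochberg at 0.05; R 4.3.3); DESeq2 1.42.0 was an alternative. The sums of 1 library come from the same sample, which is the pairing behind the block. A standard error is the log2 difference divided by the root of F, and intervals are 95% with the test's degrees of freedom.

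Members and lists were chosen with earlier results of these data known. By rule, up to 3 genes higher and 3 lower per list and comparison, with the same direction in every library, were open to naming (the gene of lowest p in a list without a call), of which some are printed for the states, together with Rac1; for each member the 3 genes of highest r were named among genes with a mean log2 CPM of at least 5. Clusters of T-cell-like barcodes were picked for mention after their values were seen. Alternatives were other scalings, filters, clusterings and thinning depths, and leaving out each library. A result that needs an item withheld for evaluation is not reported here.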

Additional observations from a re-analysis of the deposited data

How the results depend on the processing

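The depth of neutrophil-like barcodes limits Cybb most: 116 UMIs in all, 26 in the interferon state and 54 in the thinned Icam1 comparison. The 5 differences from the monocyte/macrophage class kept their direction in every alternative run, and the calls of Cybb, Ncf1, Ncf4 and Rac2 were kept; leaving out 1 library gave -4.21 to -3.65 for Cybb and -0.51 to -0.24 for Cyba. Thinning to 600 UMIs called 2494 of 3612 genes tested there in place of 6182 of 9235. The fit without the library block gave -3.88 for Cybb and changed the call of no member in that comparison. In the Icam1 comparison 24 genes were called, 9 without the block, which drops the pairing, 9 to 32 with 1 library left out, 56 without a filter on low counts, 9 with the stricter barcode filter, 48 at the median depth and 14 with at least 2 Icam1 UMIs; no member was called in any of these. The count of pathway genes called there went from 1 to 0 with DESeq2, without the block, with any library left out, with at least 2 Icam1 UMIs and without the interferon state. Members had 18 calls in neutrophil states, and the number of calls made was 14 to 19 with 1 library left out, 8 with the stricter barcode filter and 8 at sub-clustering resolution 0.3, where fewer states could be tested. The causes of the changes listed here were not tested otherwise.

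Shares of barcodes with a UMI rose with depth. Without thinning they were 1.64% for Cybb, 59.2% for Cyba, 21.4% for Ncf1, 48.1% for Ncf4 and 59.3% for Rac2 in neutrophil-like barcodes, and 1.83%, 62.1%, 21.7%, 48.4% and 61.0% at 1000 UMIs. In monocyte/macrophage-like barcodes they were 70.6%, 97.2%, 43.3%, 75.8% and 82.8% without thinning, and 27.2%, 78.1%, 11.4%, 32.3% and 39.7% at 1000 UMIs.

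Signs turned for small differences. Rac2 against T-cell-like barcodes went from -0.01 to 0.041 with DESeq2, 0.075 without a filter, 0.0048 without the highest doublet scores, 0.20 at Leiden resolution 0.5, 0.10 with classes from marker UMIs and -0.035 to 0.23 with 1 library left out. With classes from marker UMIs Cybb against NK-cell-like barcodes was -0.72 and Cyba against dendritic-cell-like ones -0.081. With library totals Cyba in the Cxcl3-Hilpda-Hcar2 state was -0.37, Ncf1 in the Hspa1a-Mgarp state 0.020, Cyba and Ncf4 in the Ltc4s-Siglecf state 0.35 and 0.20, and Ncf4 in the Plau-Pla1a state 0.091. Without a filter Ncf4 was 0.070 in the Cxcl3-Hilpda-Hcar2 state, Cyba and Ncf4 were 0.17 and 0.0095 in the Ltc4s-Siglecf state, and Cyba and Rac2 were -0.049 and -0.089 in the Icam1 comparison, where Rac2 was -0.23 with at least 2 Icam1 UMIs. With the stricter barcode filter Ncf1 and Ncf4 in the Cxcl3-Hilpda-Hcar2 state were 0.063 and 0.070 and Cyba in the Ltc4s-Siglecf state 0.012. Thinning gave 0.0054 for Ncf1 in the former and 0.014 for Cyba in the latter state. Sub-clustering at 0.3 gave -0.048 for Cyba in the Cxcl3-Hilpda-Hcar2 state, and Cybb in the Ltc4s-Siglecf state was -0.34 with DESeq2. Leaving out 1 library gave -0.0072 to 0.34 for Cyba, -0.17 to 0.16 for Ncf1 and -0.041 to 0.18 for Ncf4 in the Cxcl3-Hilpda-Hcar2 state, -0.70 to 0.039 for Ncf1 in the Hspa1a-Mgarp state, and -0.34 to 1.11 for Cybb and -0.38 to 0.039 for Ncf4 in the Ltc4s-Siglecf state. Leaving out barcodes with a C1q UMI, chosen after seeing the data as was the Icam1 comparison without the interferon state, gave 0.018 for Ncf1 in the Cxcl3-Hilpda-Hcar2 and -0.086 for Cybb in the Ltc4s-Siglecf state. The fit without C1q barcodes held no Hspa1a-Mgarp state. Cybb had no value in the states under the stricter filter or thinning, and none in the Icam1 comparison under the stricter filter, with undetected barcodes drawn to the same state mix or without the interferon state.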

Other observations

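Barcodes outside all comparisons also carried the members. The unnamed cluster of 241, which mixed T-cell with neutrophil transcripts and had a median doublet score of 0.212, held 1275 ± 154 CPM of Rac2, 298 ± 8.09 of Ncf4, 64.1 ± 24.7 of Ncf1 and 7.83 ± 8.60 of Cybb (SD, n = 3). Its Ncf1 and Ncf4 values lay between those of T-cell-like and neutrophil-like barcodes. The unnamed cluster of 83, led by immunoglobulin and collagen genes, had 120 ± 57.6 CPM of Cybb from 30 UMIs and 45.1 ± 24.4 of Ncf1 from 9 UMIs.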
